A study of Homo sapiens with 10 samples.

Results

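The genes described here are the 4 receptors of the ERBB family (EGFR, ERBB2, ERBB3 and ERBB4) and 6 of their ligands (AREG, EREG, HBEGF, TGFA, NRG1 and BTC), 10 of the 62700 genes in the count table. They were taken by gene symbol, and each symbol matched 1 row. Polyadenylated RNA was sequenced from RPE p53-/- cells, a p53-deficient human line from the retinal pigment epithelium, and from the same line with CCAR1, a cell cycle and apoptosis regulator that the series title calls a splicing factor, knocked out. Each genotype had 5 samples, both lacked p53, and both were grown in DMEM/F12 with serum. The sources used here do not say whether the samples were separate cultures or whether the knockout is 1 clone. The p-values therefore reflect only the scatter of these samples, part of which may be technical.

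ERBB receptors are tyrosine kinases of the cell surface that work in pairs. EGFR binds epidermal growth factor (EGF), amphiregulin (AREG), epiregulin (EREG), heparin-binding EGF-like growth factor (HBEGF), transforming growth factor alpha (TGFA) and betacellulin (BTC), while ERBB3 and ERBB4 bind neuregulins such as NRG1. ERBB2 has no known soluble ligand and acts as a partner of the others, and ERBB3 has little kinase activity of its own. The ligands are made as membrane proteins and are released by proteases, and active receptors signal to the RAS-ERK and PI3K pathways.

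Replicates 1 to 3 of each genotype had totals of 52.6 to 65.2 M counts (M, 1e6) and replicates 4 and 5 totals of 320.6 to 385.4 M, and they are named shallow and deep below. Of 12 markers of pigment epithelium, 8 were under 1 CPM (counts for every 1e6 of TMM-scaled library total) in each deep library, RPE65 and TYR among them. The other 4, MITF, OTX2, BEST1 and SERPINF1, were at 1 CPM or more in every library. Of 7 markers of epithelium, 5 were under 1 CPM in each deep library, EPCAM and CDH1 among them, while KRT8 and KRT18 were expressed. KRT19, also among the 5, averaged 8.39 CPM in the shallow parental and 6.86 CPM in the shallow knockout libraries. In the deep ones it averaged 0.0596 and 0.0398 CPM. The shallow libraries also held transcripts of other tissues. Summed over 9 skeletal muscle markers they had 257 to 550 CPM against 9.71 to 23.5 CPM in the deep libraries, where TNNT1 made up nearly all of the sum (means of 9.46 CPM in parental and 23.2 CPM in knockout). The sum over 5 erythroid markers was 21.7 to 181 CPM against 0.0773 to 0.132 CPM, and that over 6 liver markers 26.0 to 70.9 CPM against 0.609 to 1.44 CPM. The sum over 6 leukocyte markers was lower, at 1.69 to 6.35 CPM against 0.351 to 0.400 CPM. The sum over 6 brain markers went the other way, at 28.7 to 31.6 CPM in the shallow and 37.6 to 40.8 CPM in the deep libraries. Of these 6, 3 were under 1 CPM in each deep library. No marker was at 0 in every library. CCAR1 itself averaged 148 ± 23.5 CPM in the parental line and 106 ± 18.5 CPM in the knockout (SD, n = 5; edgeR adjusted p = 0.0201), and the ranges met at 125 and 126 CPM. A count per gene cannot tell edited from intact CCAR1 transcripts.

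Of the 9 members with enough counts to be tested, 5 fell in knockout cells and 0 rose: the receptor ERBB2 and the ligands AREG, TGFA, HBEGF and NRG1. Over all 18979 genes tested, 16.9% were lower and 19.7% higher by the same rule (edgeR's quasi-likelihood test, Benjamini-Hochberg adjusted p under 0.05). The count of 0 higher was also 0 at an unadjusted p under 0.05, in DESeq2 and in limma-voom. The median log2 fold change of the 9 was -0.29, against 0.02 for all genes tested. With the replicate number as a block 6 members fell and 0 rose, where 30.1% of all genes were lower and 31.1% higher, and the sixth was EGFR. For 5 members every knockout library lay below every parental library, which held for 14.6% of all genes. For 6 members the knockout libraries lay below the parental ones within both the shallow and the deep libraries, which held for 26.9% of all genes. In bulk RNA, fewer cells that express a gene and less RNA per cell cannot be told apart.

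**Figure D1:**
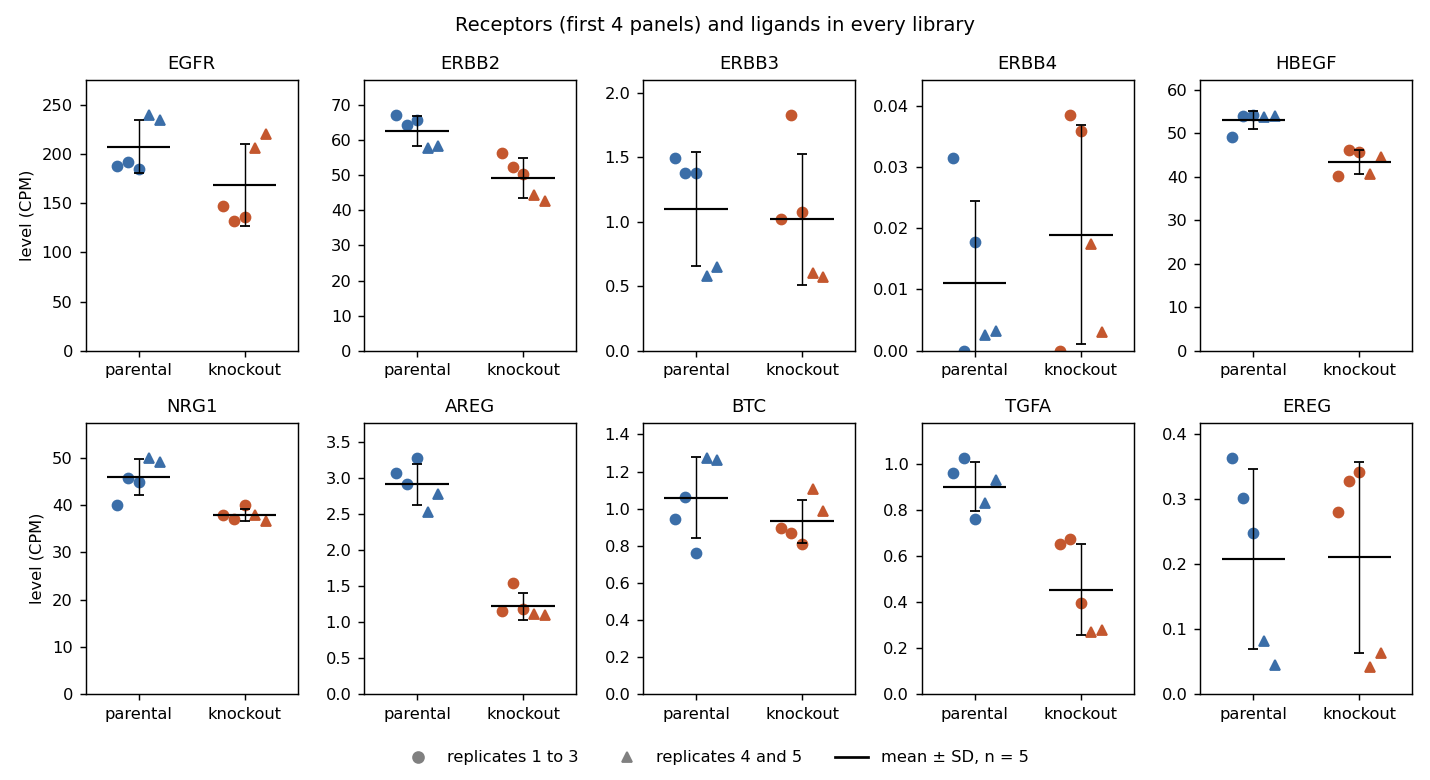
Level of each gene (CPM, linear axes from 0, a scale of its own in each panel) in the 5 parental (blue) and 5 knockout (orange) libraries, with circles for replicates 1 to 3, triangles for replicates 4 and 5, and the mean ± SD in black. AREG, TGFA, HBEGF, ERBB2 and NRG1 have no overlap between the genotypes, while ERBB3 and EREG part by replicate set and not by genotype.

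EGFR (ENSG00000146648.21, chromosome 7, 55019021 to 55211628, plus strand, hg38), the receptor with the most transcripts here, was at 188, 192, 185, 240 and 234 CPM in parental replicates 1 to 5 and at 147, 132, 136, 206 and 221 CPM in knockout replicates 1 to 5. The deep libraries of both genotypes were the high ones, so the genotypes overlapped, although each knockout library was below the parental libraries of its depth. Over all libraries the log2 fold change came to -0.30 with a standard error (SE) of 0.16 (edgeR adjusted p = 0.182, exact two-sided permutation p = 0.127). Neither of these tests took account of depth. With the replicate block the log2 fold change came to -0.33 (SE 0.062, edgeR adjusted p = 0.00114). The shallow libraries alone gave -0.45 (edgeR adjusted p = 5.83e-06) and the deep ones -0.17 (4.28e-04). The difference between depths, 0.29 on the log2 scale (SE 0.071), was tested, and did not pass (edgeR adjusted p = 0.0801). It did pass without knockout replicate 1 (0.34, edgeR adjusted p = 0.00336) and with no filter on low counts (0.27, adjusted p = 0.0110).

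ERBB2 (ENSG00000141736.14, chromosome 17, 39687914 to 39730426, plus strand) was at 67.1, 64.4, 65.7, 57.6 and 58.3 CPM in parental libraries and at 56.3, 52.2, 50.3, 44.4 and 42.8 CPM in knockout libraries. Here the deep libraries were the low ones, and the highest knockout value stayed under the lowest parental value. ERBB2 fell to 78.6% of the parental level (log2 fold change -0.35, SE 0.089, edgeR adjusted p = 0.0107). By depth the log2 fold change was -0.32 (shallow) and -0.43 (deep). An exact two-sided permutation test gave p = 0.00794, which is the smallest it can give with 5 against 5. Its exons share 571 bases with those of MIEN1 and 194 with those of PGAP3, both on the opposite strand, and reads from such stretches may not be told apart. The exons of EGFR share 186 bases with EGFR-AS1 on the opposite strand, and those of ERBB3 share 31 with AC034102.2 on the same strand.

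The genes of 2 chromosomes that carry receptors were shifted as groups. Protein-coding genes of chromosome 7, where EGFR lies, had a median log2 fold change of -0.30, and those of chromosome 17, where ERBB2 lies, one of -0.28. With the median of each chromosome subtracted from the knockout libraries, EGFR was at -0.0043 (edgeR adjusted p = 0.992) and ERBB2 at -0.066 (adjusted p = 0.637). The same subtraction in the fit with the replicate block gave -0.027 for EGFR (edgeR adjusted p = 0.727) and -0.072 for ERBB2 (adjusted p = 0.147). Relative to the other genes of their chromosomes, neither receptor was then called. AREG, TGFA, HBEGF and NRG1 kept their calls in both fits, with 4 members lower in each, against 13.5% of all genes without the block and 27.0% with it. The medians of their chromosomes were -0.016 for chromosome 4, 0.049 for chromosome 2, 0.014 for chromosome 5 and -0.076 for chromosome 8.

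**Figure D2:**
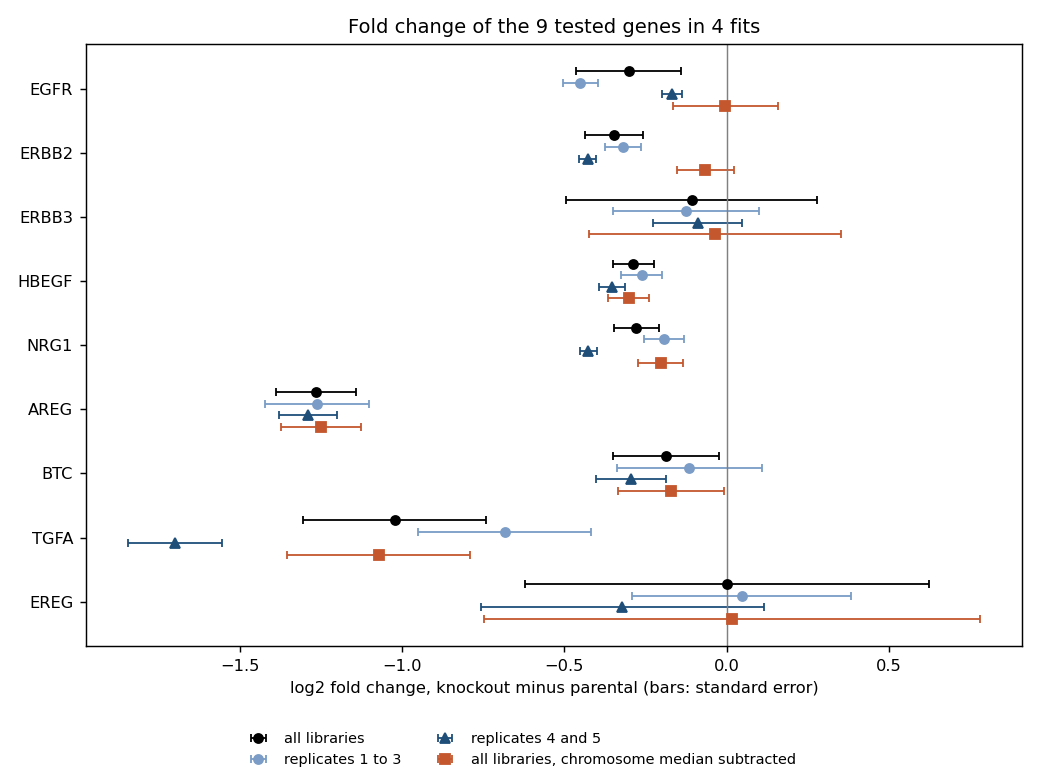
Log2 fold change, knockout minus parental, of the 9 tested genes, with bars for the standard error, over all libraries, in replicates 1 to 3, in replicates 4 and 5, and over all libraries with the chromosome median subtracted. EGFR and ERBB2 move to near 0 with the subtraction, while AREG stays between -1.29 and -1.25 in the 4 fits.

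ERBB3 and ERBB4, the neuregulin receptors, were scarce. ERBB3 (ENSG00000065361.17, chromosome 12, 56076799 to 56103505, plus strand) was at 1.496, 1.38, 1.38, 0.582 and 0.653 CPM in the parental libraries and at 1.02, 1.83, 1.08, 0.604 and 0.568 CPM in those of the knockout. The shallow libraries of both genotypes were above the deep ones, and the genotypes overlapped (log2 fold change -0.11, SE 0.39, edgeR adjusted p = 0.873). The muscle, erythroid and liver markers given above were also higher in the shallow libraries, and their part in the level of ERBB3 was not tested. In the deep libraries alone ERBB3 had a log2 fold change of -0.090 (SE 0.14). ERBB4 (ENSG00000178568.16, chromosome 2, 211375717 to 212538841, minus strand) had 0 to 6 estimated counts per library, did not pass the filter on low counts and was not tested. At these depths a change of ERBB4 was not detectable.

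AREG (ENSG00000109321.11, chromosome 4, 74445134 to 74455009, plus strand), an EGFR ligand, fell to 41.6% of the parental level. Its parental libraries were at 3.07, 2.92, 3.27, 2.53 and 2.77 CPM, from 165 to 956 counts each. The knockout libraries were at 1.154, 1.54, 1.19, 1.10 and 1.09 CPM, from 62 to 378 counts each. The genotypes were far apart in both sets of libraries. This is a log2 fold change of -1.26 (SE 0.12, edgeR adjusted p = 2.36e-05, exact two-sided permutation p = 0.00794), and the value was -1.26 by the shallow and -1.29 by the deep libraries. EREG (ENSG00000124882.4, chromosome 4, 74365143 to 74388751, plus strand), which encodes another EGFR ligand and is the nearest protein-coding neighbour of AREG on its upstream side, was not called. EREG was at 0.362, 0.300, 0.248, 0.0819 and 0.0440 CPM in parental and at 0.279, 0.327, 0.341, 0.0408 and 0.0625 CPM in knockout libraries, from 13.8 to 31.0 counts each. The shallow libraries were the high ones in both genotypes, as for ERBB3, and its log2 fold change of -0.00035 had an SE of 0.62 (edgeR adjusted p = 0.9998). BTC, the third of these genes on chromosome 4, is given below.

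The promoters of AREG and EREG are shown because these neighbours had log2 fold changes of -1.26 and -0.00035, a difference that was not tested. Each line gives the 250 bases before the RefSeq start (GRCh38.p14), 5′ to 3′ on the strand of the gene, which are chr4:74444886-74445135 for AREG and chr4:74364895-74365144 for EREG. Capitals mark matches on either strand to 4 motifs: the cAMP response element TGACGTCA, the AP-1 element TGANTCA, the TEAD element GGAATG (or CATTCC) and the TATA box TATAAA.
AREG: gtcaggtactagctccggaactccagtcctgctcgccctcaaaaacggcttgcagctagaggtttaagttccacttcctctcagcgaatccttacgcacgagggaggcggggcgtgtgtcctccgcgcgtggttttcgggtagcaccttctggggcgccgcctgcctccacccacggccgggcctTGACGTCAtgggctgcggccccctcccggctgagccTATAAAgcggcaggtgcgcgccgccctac
EREG: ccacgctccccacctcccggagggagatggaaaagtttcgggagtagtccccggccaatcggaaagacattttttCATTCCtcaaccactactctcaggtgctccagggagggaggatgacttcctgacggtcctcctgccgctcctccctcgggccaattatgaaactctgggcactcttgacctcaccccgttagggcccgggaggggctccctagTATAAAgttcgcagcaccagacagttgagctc
The AREG stretch holds a cAMP response element 65 to 58 bases before the start, which 1.65% of 35116 RefSeq promoter stretches of this length hold, and a TATA box 29 to 24 bases before it, held by 10.7%. The EREG stretch holds a TATA box 32 to 27 bases before the start and a TEAD element, on the other strand, 175 to 170 bases before it, held by 11.9%. An AP-1 element is held by 6.57% and matched neither stretch. Such matches describe the letters and do not show binding. Stretches of 8 of the 10 members were searched, and those of ERBB3 and NRG1 were not. Among the stretches searched, the AP-1 letters occur before the ERBB2 start and before the second of 2 EGFR starts.

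TGFA (ENSG00000163235.16, chromosome 2, 70447280 to 70554193, minus strand), an EGFR ligand, fell to 49.2% of the parental level. It was at 0.960, 1.02, 0.760, 0.830 and 0.929 CPM in parental libraries, and at 0.651, 0.673, 0.395, 0.271 and 0.277 CPM in knockout libraries, where the shallow libraries held 22 to 35 counts and the deep ones 93 each. No knockout value reached the lowest parental value. Its log2 fold change of -1.02 passed (SE 0.28, edgeR adjusted p = 0.0157, exact two-sided permutation p = 0.00794). Shallow libraries gave -0.68 and deep ones -1.70, and this difference of -0.9997 (SE 0.31) did not pass its test (edgeR adjusted p = 0.134). The parental means of the shallow and deep libraries were 0.915 and 0.880 CPM, while the knockout means were 0.573 and 0.274 CPM. The part of the transcripts of other tissues in this difference was not tested.

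HBEGF (ENSG00000113070.8, chromosome 5, 140332843 to 140346631, minus strand) encodes the ligand with the most transcripts per length in these cells. Parental libraries were at 49.2, 53.9, 54.2, 53.8 and 53.9 CPM and knockout libraries at 40.1, 46.0, 45.6, 40.7 and 44.6 CPM. The genotypes did not overlap, and the means were 52.4 and 53.9 CPM in the shallow and deep parental libraries. HBEGF fell to 81.9% of the parental level (log2 fold change -0.29, SE 0.063, edgeR adjusted p = 0.00459), and its exact two-sided permutation test gave p = 0.00794. The log2 fold change was -0.26 by the shallow and -0.35 by the deep libraries.

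NRG1 (ENSG00000157168.22, chromosome 8, 31639386 to 32767959, plus strand), the neuregulin ligand of ERBB3 and ERBB4, was at 40.2, 45.7, 45.0, 49.98 and 49.2 CPM in parental libraries and at 37.9, 37.1, 40.0, 37.9 and 36.7 CPM in knockout libraries. The highest knockout library, replicate 3, lay just under the lowest parental library, replicate 1. NRG1 fell to 82.4% of the parental level (log2 fold change -0.28, SE 0.070, edgeR adjusted p = 0.00940, exact two-sided permutation p = 0.00794). Shallow libraries gave -0.19 and deep ones -0.43, and that difference of -0.22 (SE 0.079) did not pass its test (edgeR adjusted p = 0.179). Of the 9 members, 0 passed the edgeR test of a difference between depths after adjustment, against 0.601% of all genes. In the same test 3 of the 9 (EGFR, TGFA and NRG1) had an unadjusted p under 0.05, against 3271 of the 18979 genes tested. NRG1 is known for many isoforms, which a count per gene adds together.

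BTC (ENSG00000174808.12, chromosome 4, 74744759 to 74794686, minus strand), a ligand of EGFR and ERBB4, was at 0.945, 1.06, 0.760, 1.27 and 1.26 CPM in parental and at 0.893, 0.866, 0.808, 1.11 and 0.984 CPM in knockout libraries. The genotypes overlapped, and the log2 fold change of -0.19 (SE 0.16) did not pass (edgeR adjusted p = 0.424, and 0.178 with the replicate block). In the deep libraries, which held 331 to 481 counts of BTC against 43 to 60 in the shallow ones, it came to -0.29 (SE 0.11, edgeR adjusted p = 0.0285).

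Per length of exon, the order of levels in parental cells was HBEGF (17.6 ± 0.704 CPM per kb), EGFR (16.6 ± 2.15), ERBB2 (6.07 ± 0.424), NRG1 (4.06 ± 0.345), AREG (1.77 ± 0.172), BTC (0.376 ± 0.0771), TGFA (0.182 ± 0.0212), ERBB3 (0.121 ± 0.0489), EREG (0.0362 ± 0.0242) and ERBB4 (0.00084 ± 0.0010), each a mean ± SD over 5 libraries. The ranges of HBEGF and EGFR overlapped, and their order turned with depth. EGFR was at 14.8 to 15.3 CPM per kb against 16.3 to 17.95 for HBEGF in the shallow parental libraries, and at 18.7 and 19.1 against 17.8 and 17.9 in the deep ones. TGFA and ERBB3 overlapped as well, while the other neighbours in this order were apart. The exons of all annotated transcripts were counted, so a gene that uses short transcripts is placed too low.

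**Figure D3:**
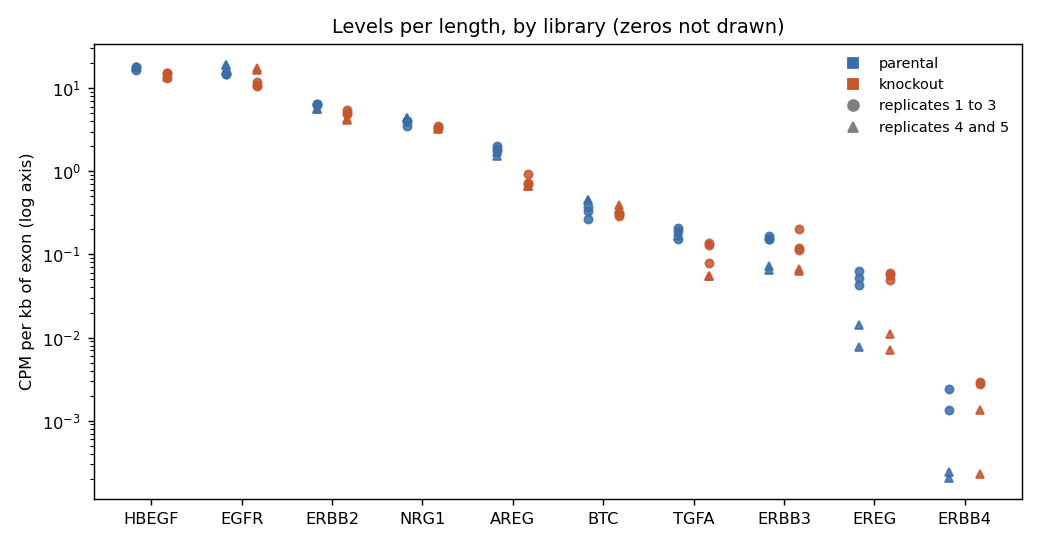
Level per kb of annotated exon (CPM per kb, log axis) of the 10 genes in each library, ordered by the parental mean, in blue for parental and orange for knockout. HBEGF and EGFR lie together at the top, and ERBB4, whose 2 libraries at 0 are not drawn, lies below the rest.

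Summed over the 6 ligands, the level per length was 24.0 ± 0.942 CPM per kb for the parental line and 18.9 ± 0.991 for the knockout (SD, n = 5), with ranges of 22.3 to 24.5 and 17.8 to 19.96. HBEGF made up 73.2% ± 0.334 of it in parental and 76.0% ± 1.14 in knockout cells, and AREG 7.38% ± 0.869 and 3.88% ± 0.475. NRG1 held 16.9% ± 0.929 and 17.7% ± 1.03. The receptors differed by depth: EGFR exceeded ERBB2 per length 2.09-fold to 2.46-fold in the shallow libraries of both genotypes, 3.31-fold and 3.43-fold in the deep parental and 3.82-fold and 4.26-fold in the deep knockout libraries.

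**Figure D4:**
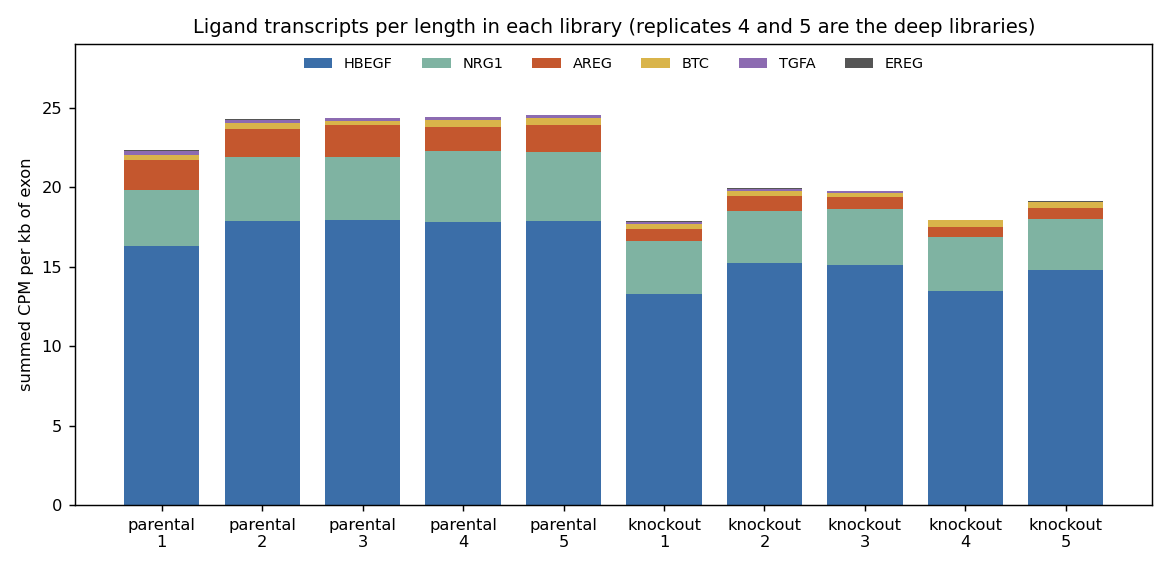
Summed level of the 6 ligands per kb of exon (CPM per kb) in each of the 10 libraries, with each ligand's part stacked. The parental libraries reach 22.3 to 24.5 and the knockout libraries 17.8 to 19.96, and the AREG part is smaller in each knockout library.

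Of the 5 other ligand genes of the family, EGF and NRG2 had enough counts, and 1 rose while 0 fell, where 19.7% of all genes tested rose and 16.9% fell. EGF, the ligand that gave EGFR its name, was at 0.520, 0.442, 0.654, 0.367 and 0.235 CPM in the parental libraries and at 2.61, 2.17, 2.41, 2.30 and 2.41 CPM in those of the knockout. The genotypes were apart in both sets of libraries, and EGF rose 5.48-fold (log2 fold change 2.45, edgeR adjusted p = 2.43e-05). NRG2 was at 11.1 and 13.3 CPM on average and did not pass (edgeR adjusted p = 0.269, and 0.00422 with the replicate block).

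Among 12 genes of ligand shedding, 4 rose and 1 fell, with a median log2 fold change of 0.24, where 19.7% of all genes rose and 16.9% fell. The replicate block made this 8 and 3 of the 12, where 31.1% of all genes rose and 30.1% fell. The metalloprotease ADAM19 rose from 32.3 ± 1.11 to 60.5 ± 4.57 CPM (edgeR adjusted p = 3.04e-06) and the rhomboid protease RHBDL2 from 0.747 ± 0.0464 to 1.86 ± 0.235 CPM (adjusted p = 1.09e-05). BACE1 and ADAM12, named after their values were seen, also rose, by 0.30 and 0.27 on the log2 scale. With chromosome medians subtracted 6 genes of shedding were higher and 1 lower, with ADAM8 and RHBDF2 added (edgeR adjusted p = 0.0449 and 0.00466). Without the subtraction ADAM8 and RHBDF2 did not pass (edgeR adjusted p = 0.131 and 0.0962), but did with the replicate block (0.0109 and 1.96e-04). In the fit with chromosome medians subtracted ADAM12, on chromosome 10, was at 0.44. That fit called 13.5% of all genes lower, and its share of genes higher was not counted, so the 6 have no share to be set against. ADAM15 fell from 210 ± 21.2 to 172 ± 17.8 CPM (edgeR adjusted p = 0.0305), and lost its call in 5 of the 10 fits that left out a library (adjusted p up to 0.0691). ADAM17, the main sheddase of several EGFR ligands, was at 32.6 and 36.3 CPM (edgeR adjusted p = 0.543, and 0.0375 with the block), and ADAM10 at 111 and 97.1 CPM (adjusted p = 0.363, and 0.00150 with the block).

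Among 22 tested genes that act next to the receptors, 1 rose and 3 fell, with a median log2 fold change of -0.090. The replicate block made this 5 and 10 of the 22. Over all genes tested 19.7% rose and 16.9% fell, and with the block 31.1% and 30.1%. PIK3R3, a regulatory subunit of PI3K, rose from 16.0 ± 2.38 to 27.1 ± 4.67 CPM (edgeR adjusted p = 0.00162). The adaptor GRB2 fell from 140 ± 4.52 to 105 ± 8.24 CPM (adjusted p = 5.52e-04 in edgeR) and the transcription factor STAT3 from 72.6 ± 3.92 to 54.5 ± 2.45 CPM (3.53e-04). Both lie on chromosome 17, and with its median subtracted neither was called (edgeR adjusted p = 0.145 and 0.122). In that fit PIK3CB and PLCG1, named after their values were seen, were called lower (edgeR adjusted p = 0.0456 and 0.0470). The list thus again had 3 lower and 1 higher, where 13.5% of all genes were lower and the share higher was not counted. Without the subtraction PIK3CB did not pass (edgeR adjusted p = 0.0586), but did with the replicate block (1.02e-05). GAB2, a docking protein named after its value was seen, fell by 0.27 on the log2 scale.

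Among 23 tested inhibitors of the receptors and genes of their turnover, 2 rose and 4 fell, with a median of 0.053. The block made this 6 and 9 of the 23. Of all genes tested, 19.7% rose and 16.9% fell without the block, and 31.1% and 30.1% with it. The ubiquitin ligase CBLB rose from 6.89 ± 1.35 to 11.4 ± 2.22 CPM (edgeR adjusted p = 0.00588) and the endocytic protein EPN2 from 24.1 ± 0.920 to 30.2 ± 1.49 CPM (0.00123). EPN2 lies on chromosome 17, and with its median subtracted the log2 fold change of EPN2 was 0.61 in place of 0.33. LRIG1, a membrane protein that lowers ERBB receptor levels, fell from 22.7 ± 0.764 to 17.1 ± 1.54 CPM (edgeR adjusted p = 0.00116), and its relative LRIG3 from 8.26 ± 0.775 to 5.85 ± 0.577 CPM (0.00215). STAM and PTPN1, named after their values were seen, fell by 0.53 and 0.25 on the log2 scale. The feedback inhibitor ERRFI1 was at 125 and 143 CPM and did not pass (edgeR adjusted p = 0.0972, and 6.02e-04 with the block).

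Of 18 genes that ERK signalling is known to induce, 5 rose and 5 fell, with a median of 0.077. All genes tested had 19.7% higher and 16.9% lower. The replicate block made this 6 and 6 of the 18, where 31.1% of all genes rose and 30.1% fell. With chromosome medians subtracted 5 of the 18 were higher and 3 lower, where 13.5% of all genes were lower. The share higher was not counted, so the 5 have no share to be set against. DUSP6, named after its value was seen, was among the 5, at 0.22 on the log2 scale (edgeR adjusted p = 0.0104). Without the subtraction DUSP6 was at 0.15 (edgeR adjusted p = 0.0569, and 0.0101 with the block). DUSP4, a phosphatase of ERK, rose from 11.5 ± 0.757 to 56.7 ± 4.29 CPM (edgeR adjusted p = 1.29e-08) and the early response factor EGR1 from 9.05 ± 3.01 to 24.1 ± 6.77 CPM (8.91e-04). SPRED2, SPRED3 and PHLDA1, named after their values were seen, rose by 0.28, 0.23 and 0.23 on the log2 scale, and SPRED3, on chromosome 19, was at 0.060 with the chromosome median subtracted (edgeR adjusted p = 0.591). ETV4, an ETS transcription factor gene of chromosome 17, also fell, from 39.5 ± 3.12 to 25.5 ± 3.29 CPM (edgeR adjusted p = 5.73e-04), and with the chromosome median subtracted by 0.35 in place of 0.63 on the log2 scale. SPRY2, a feedback inhibitor whose gene is on chromosome 13, declined from 29.3 ± 1.93 to 22.4 ± 1.39 CPM (edgeR adjusted p = 0.00125), and with the chromosome median subtracted was at 0.020 (adjusted p = 0.870). SPRY1, FOSL1 and IER3, named after their values were seen, fell by 1.39, 0.44 and 0.34 on the log2 scale, and IER3, on chromosome 6, was at -0.020 with the chromosome median subtracted (edgeR adjusted p = 0.907).

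**Figure D5:**
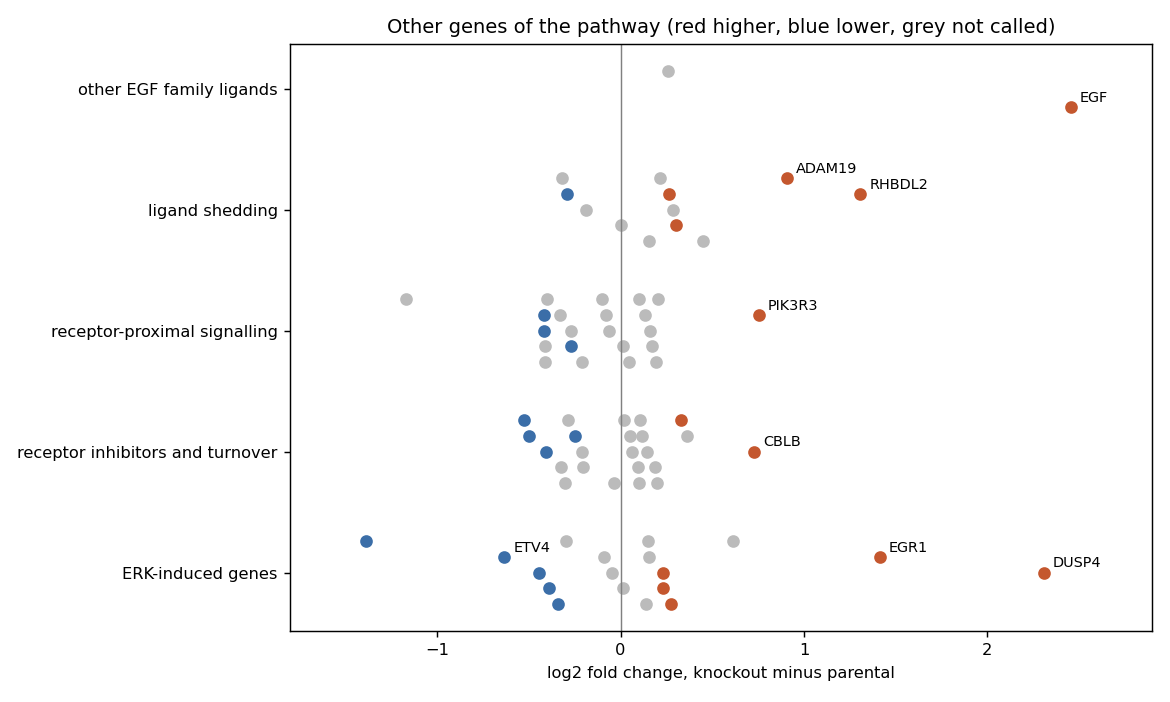
Log2 fold change, knockout minus parental, of the tested genes of 5 further pathway lists, 1 dot per gene, with red for genes called higher, blue for genes called lower (edgeR adjusted p under 0.05) and grey for the rest. EGF and DUSP4 lie farthest to the right, at 2.45 and 2.31, and each list with 3 or more tested genes holds calls in both directions.

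Likeness of pattern was measured as the root mean square difference of log2 CPM, centred on each gene's mean, over the 10 libraries, for 13536 genes of at least 1 CPM on average. The genes most like EGFR were SON (0.033), KIAA2026 (0.037) and HEG1 (0.043), against a median difference of 0.37, and those most like HBEGF were SUPT4H1 (0.042), EMG1 (0.048) and EIF2B5 (0.053), against a median of 0.30. The mean level of SON was 309 CPM in the parental line against 255 CPM in the knockout, and that of SUPT4H1 was 78.4 against 63.7 CPM.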

How the data were processed

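The authors' deposited table holds 1 estimated count for each gene and library, unscaled. The submitters' processing notes name kallisto 0.48.0 and hg38. The sources used here do not give the annotation release, the strand setting or how transcripts were summed to genes. Reads shared by transcripts are divided by kallisto, so similar or overlapping genes can exchange counts.

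Counts were rounded, genes were kept by filterByExpr (group: genotype) and libraries scaled by TMM. For 18979 genes edgeR 4.0.16 (R 4.3.3) fitted a robust quasi-likelihood model of genotype, adjusted by Benjamini-Hochberg over all of them, with a threshold of 0.05. The SE was derived from coefficient and F statistic. Permutation tests used log2 CPM with a prior count of 3. Positions, exon lengths and overlaps are from GENCODE 29 (GRCh38), matched by gene ID for 92.8% of genes and all 10 members. No 2 libraries of a group and depth agreed within sampling noise (chi-square per gene 6.95 to 26.5).

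To check pairing, deviations from group means were correlated between the genotypes for each replicate number. The correlations across genes were 0.640, 0.584, 0.606, 0.899 and 0.894, all above the 0.1 at which samples count as paired. Inside a depth they were -0.060 to -0.0052, so the pairing follows depth. The blocked value is printed where it changes a call or a count.

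Every member was named. Of each further list up to 2 genes in each direction were named by rule, those with the smallest adjusted p and at least 1 CPM in a genotype. The members and lists were chosen with earlier results of these data known. Alternatives were DESeq2 1.42.0, limma-voom (limma 3.58.1), other scalings and filters, no robust step, the block, depth as a term, each depth alone, chromosome medians subtracted and each library left out. The block joined to chromosome medians, and the alternatives of the test between depths, were chosen after seeing the data.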

Additional observations from a re-analysis of the deposited data

Results flagged for a closer look

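Gaps between libraries were tested with Dixon's ratio in 20 groups of 5 (10 genes in 2 genotypes), of which chance flags about 1 in 20, and 2 groups stood out. Knockout replicate 2 had the highest AREG level of its group, at 1.54 CPM, and stood apart from the other knockout libraries at 1.09 to 1.19 CPM, while still below the lowest parental library at 2.53 CPM. Parental replicate 1 had the lowest HBEGF level of its group, at 49.2 CPM, against 53.8 to 54.2 CPM in the other parental libraries and 46.0 CPM in the highest knockout library.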

How the results depend on the processing

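The count of 5 members lower ran from 4 to 7 over the alternatives run, and the count of members higher was 0 in each. The 7 came from replicates 4 and 5 alone, and replicates 1 to 3 alone and depth as a term each gave 6. In these fits the share of all genes lower was not counted, so their counts have no share to be set against. AREG, HBEGF and NRG1 kept their direction and call in 23 of 23 alternatives and TGFA in 22 of 22, with adjusted p up to 1.51e-04, 0.0252, 0.0455 and 0.0420. TGFA and EREG were not tested with a filter of 1 CPM in 5 libraries. ERBB2 lost its call where chromosome medians were subtracted, with and without the block, and EGFR was called with the replicate block (-0.33), with depth as a term (-0.32) and in each depth alone. EREG turned positive with library size only (0.034), in replicates 1 to 3 only (0.045) and with chromosome medians subtracted (0.015), and ranged from -0.31 to 0.33 when a library was left out. ERBB3 ranged from -0.43 to 0.051 when a library was left out. Neither was called in any alternative run. The number of members that differed between depths was 1 (EGFR) with no filter on low counts, and 0 to 1 when a library was left out. The replicate block changed no other call of a member than that of EGFR. The causes were not tested. For TGFA in shallow knockout libraries and for EREG, counts of 13.8 to 35 per library limit the precision.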
